A study of Homo sapiens with 6 samples.

Results

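NFIL3 and 9 genes of the circadian clock, DBP, TEF, PER1, PER2, PER3, CRY1, CRY2, CLOCK and BHLHE40, were followed in DU145, an established human prostate carcinoma cell line. They were taken by symbol from a deposited table of 32692 genes, and all 10 were found there. The cells received the compound OTI-611 at 5 µM or its solvent DMSO for 24 h, with 3 libraries per group, numbered 1 to 3. OTI-611 is known here by its code name alone, and the series title places the study around the chromatin remodeller CHD1L. The members were chosen by symbol with the expression values of this same comparison known, so their differences are given as a description, with no p-value, and stand as evidence for nothing further. Where a member is said to pass or not, this places it against the threshold used for all genes and tests nothing about it. The labels name 1 collection time and no step that sets the cells to a common clock phase, so a level here is an average over the culture. A change in every cell and a change in a share of the cells cannot be told apart in such libraries.

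The mammalian clock is a feedback loop of transcription. CLOCK, or its close relative NPAS2, pairs with BMAL1 and activates genes through the E-box, and the PER and CRY proteins made from those genes return to the nucleus and repress the pair. BHLHE40 and BHLHE41 repress at the same E-boxes, and the nuclear receptors NR1D1 and NR1D2 repress BMAL1 through the element that ROR receptors activate. An output arm acts on the D-box, which the PAR bZIP proteins DBP, TEF and HLF activate and NFIL3, also called E4BP4, represses. NFIL3 is also known for roles in lymphocyte development and in responses to stress and growth signals.

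The columns of 5 libraries hold values taken as RPKM, that is reads scaled by the length of the gene and by library size. The column of DMSO 1 holds whole numbers for all 32692 genes and was lower than the DMSO 2 and DMSO 3 average by 0.53 in the mean over 4438 genes of 10 to 50 RPKM, as if decimals had been cut off. Genes under 1 RPKM are therefore listed at 0 in DMSO 1, and folds are given against DMSO 2 and DMSO 3 alone. The step between low values gave estimated depths of 37.2 to 37.7 M reads in the OTI-611 libraries and of 30.6 and 32.3 M reads in DMSO 2 and DMSO 3. Markers of carcinoma epithelium (KRT8, KRT18, EPCAM and CDH1) summed to 214 to 228 RPKM with OTI-611 and to 263 to 271 RPKM with DMSO. Of these, CDH1 (1.45 to 1.71 RPKM with OTI-611, against 4 to 4.80 RPKM with DMSO, limma adjusted p = 7.11e-06) and KRT8 (103 to 109 RPKM with OTI-611, against 146 to 153 RPKM with DMSO, limma adjusted p = 1.07e-06) fell. KRT18 (log2 difference -0.004) and EPCAM (-0.011) did not pass. The part of these changes in the results that follow was not tested. The prostate secretory gene KLK3 was at most 0.0595 RPKM in any library, and the summed markers of leukocytes, endothelium and fibroblasts were at most 0.0956, 0.0278 and 0.0103 RPKM.

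The D-boxes and E-boxes that these proteins read were searched in the promoters of the members themselves, since NFIL3 and the PAR bZIP proteins are known to bind the D-box and CLOCK with BMAL1 the E-box. All 10 members matched RefSeq promoters, in 15 windows of 300 bases from 250 before to 50 after a transcription start (GRCh38.p14). Motifs were searched on both strands. The E-box CACGTG was found in TEF, PER1 and BHLHE40, and in 8.77% of all 27305 genes with a window (7.26% of all 35116 promoter windows). The variant CACGTT was found in PER2, CRY1, CRY2 and CLOCK, and in 6.44% of all genes (5.34% of all windows). The D-box TTANGTAA was found in PER2 and PER3, and in 2.71% of all genes (2.18% of all windows). A wider form, TTANGNAA, which every D-box also matches, was found in NFIL3 and PER1 besides these. It was found in 12.4% of all genes (10.2% of all windows). TAGGTCA, read by ROR and NR1D receptors, was found in NFIL3 and CRY2, and in 2.29% of all genes (1.85% of all windows). The window of DBP held none of these letters. TGACGTCA and TGATGNAA, bound by CREB and by CHOP and ATF4, were found in 0 members. They were found in 2.25% and 4.46% of all genes (1.85% and 3.62% of all windows). The excerpts that follow, 5′ to 3′ on the strand of the gene, show motifs of some of the members, with the motif in capitals. Whether any motif has a part in the levels below was not tested.
NFIL3, wider D-box at the upstream start, first base at -35 (chr9:91424643-91424672, minus strand): tcccagtcgtgTTACGCAAcaactttgcag
NFIL3, ROR element on the reverse strand at the downstream start, first base at -9 (chr9:91423824-91423852, minus strand): gcgctcggaacTGACCTActaacacacat
BHLHE40, E-box, first base at -245 (chr3:4979187-4979208, plus strand): tccaaCACGTGagactcatgtg
PER1, E-box, first base at -173 (chr17:8152561-8152588, minus strand): gcacccaggtcCACGTGcgcccgtgtgt
PER1, wider D-box, first base at -30 (chr17:8152416-8152445, minus strand): agtgcccggcaTTATGCAAcccgcctcccc
CRY1, E-box variant on the reverse strand, first base at -89 (chr12:107093622-107093649, minus strand): cacacttcagaAACGTGaggtgccggtg
PER2, D-box across the start, first base at -3 (chr2:238288595-238288624, minus strand): cccgctgcggcTTACGTAAccgccgccggc
PER3, D-box, first base at -177 (chr1:7784103-7784132, plus strand): gagcccgcgcgTTATGTAAcgcgccccggg

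**Figure D1:**
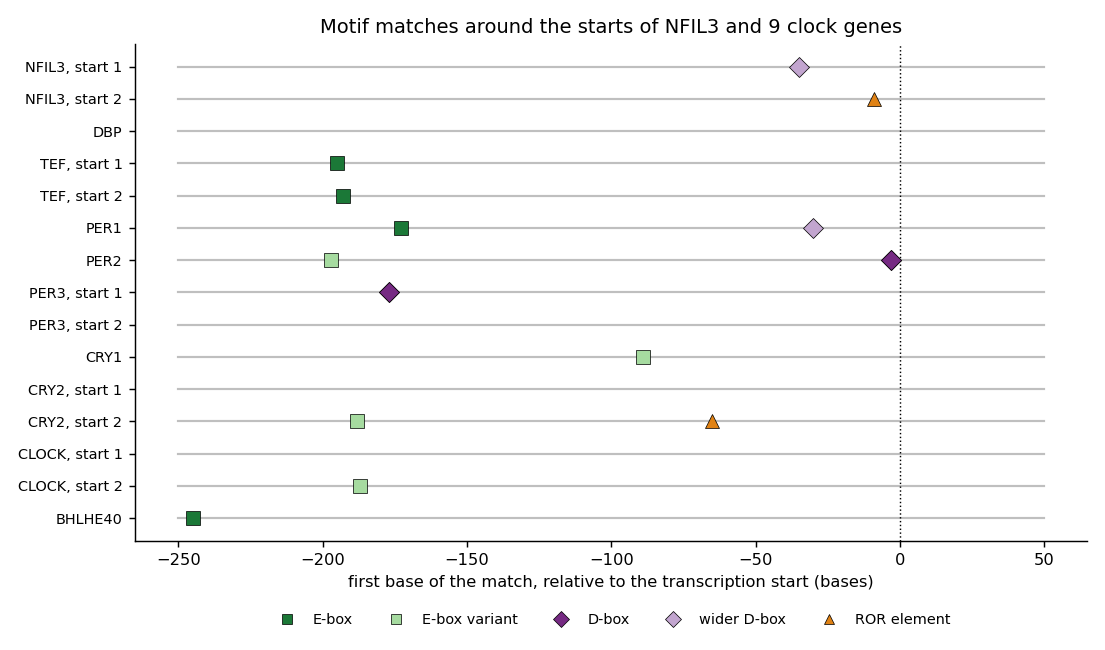
Matches of 5 motifs in the 15 RefSeq promoter windows of the 10 members, by the distance in bases of the first base of the match from the transcription start, which the dotted line marks. D-boxes lie at -177 in PER3 and -3 in PER2, and E-boxes at -245 in BHLHE40, -173 in PER1 and -195 and -193 at the starts of TEF.

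NFIL3 (ENSG00000165030, chromosome 9 from 91409045 to 91423862 on the minus strand in GENCODE v29), the repressor of the D-box arm, was the member that moved most. It stood at 96.3, 91.3 and 103 RPKM with OTI-611, against 21, 21.9 and 22.8 RPKM with DMSO. Every OTI-611 library lay far above every DMSO library, and the spread within a group was small beside the gap. The means were 97.0 ± 6.0 RPKM with OTI-611 and 21.9 ± 0.9 RPKM with DMSO (SD, n = 3 each), and the OTI-611 mean was 4.34-fold that of DMSO 2 and DMSO 3. On the scale of log2(RPKM + 1) the difference was 2.10 ± 0.047 (SE), the 17th highest of the 11978 genes with a mean of at least 1 RPKM. The estimated reads behind these values were 7087 to 8112 with OTI-611 and 1393 and 1535 in DMSO 2 and DMSO 3, and the exons of NFIL3 share no base with another annotated gene.

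**Figure D2:**
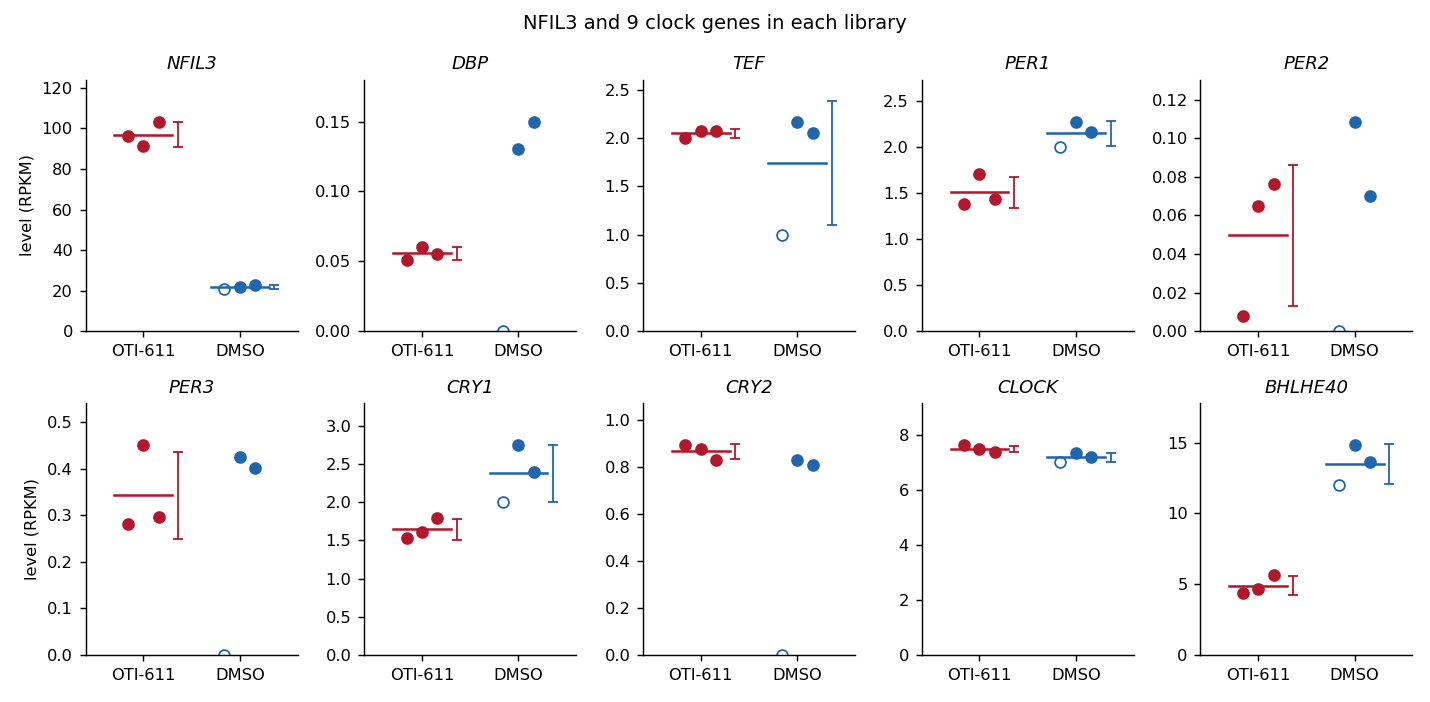
Level in RPKM of each member in the 3 OTI-611 libraries (red) and the 3 DMSO libraries (blue), with an open circle for DMSO 1, which holds whole numbers. Horizontal lines are group means and the bars beside them SD, left out where DMSO 1 is listed at 0. NFIL3 reaches 91.3 to 103 RPKM with OTI-611 against 21 to 22.8 with DMSO, and BHLHE40 4.38 to 5.66 against 12 to 14.8.

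The activators of the same D-box arm were scarce in both groups. TEF had 2.00, 2.07 and 2.07 RPKM with OTI-611, against 1, 2.17 and 2.05 RPKM with DMSO. The OTI-611 libraries lay within the range of the DMSO libraries, and the log2 difference of 0.18 ± 0.17 (SE) did not pass and became -0.03 ± 0.070 without DMSO 1. DBP was at 0.0512, 0.0604 and 0.0552 RPKM with OTI-611, against 0, 0.130 and 0.150 RPKM with DMSO. Its OTI-611 libraries were below DMSO 2 and DMSO 3 by a factor of 2.52 in the mean. The values fit 11, 13 and 12 reads with OTI-611 and 23 and 28 reads in DMSO 2 and DMSO 3, so they rest on few reads, and DBP shares 10.1% of its exon bases with SPHK2 on the opposite strand. HLF, the remaining PAR bZIP gene and not a member, had at most 0.0455 RPKM in any library.

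Set against one another as levels per length, NFIL3 outweighed the PAR bZIP genes by more with OTI-611. The level of NFIL3 was 46.4, 42.0 and 48.0 times the summed level of DBP, TEF and HLF in the OTI-611 libraries, against 9.32 and 10.2 times in DMSO 2 and DMSO 3. DMSO 1 gave 21 times, but there TEF is listed at 1 and DBP and HLF at 0. NFIL3 also made up 82.8% to 84.2% of the summed level of the 10 members with OTI-611, against 41.5% and 44.1% in DMSO 2 and DMSO 3. DMSO 1 gave 46.7%, but there DBP, PER2, PER3 and CRY2 are listed at 0.

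BHLHE40 (ENSG00000134107, chromosome 3 from 4979116 to 4985323 on the plus strand in GENCODE v29), the E-box repressor also called DEC1, had the largest fall among the members. Its level was 4.38, 4.63 and 5.66 RPKM with OTI-611, against 12, 14.8 and 13.6 RPKM with DMSO. The highest OTI-611 library was below the lowest DMSO library by a wide margin. The means were 4.89 ± 0.68 RPKM with OTI-611 and 13.5 ± 1.4 RPKM with DMSO (SD, n = 3 each), 2.91-fold lower with OTI-611 than in DMSO 2 and DMSO 3. The log2 difference was -1.30 ± 0.094 (SE), the 80th lowest of the 11978 genes, and -1.38 without DMSO 1. BHLHE40 thus fell below CLOCK in the order of the members with OTI-611, while in DMSO 2 and DMSO 3 it stood above CLOCK.

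Its paralog BHLHE41, or DEC2, which is not a member, lay in the other direction at a far lower level. BHLHE41 had 0.344, 0.293 and 0.318 RPKM with OTI-611, against 0, 0.0696 and 0.107 RPKM with DMSO. Its OTI-611 libraries lay above DMSO 2 and DMSO 3, while DMSO 1 lists any value under 1 at 0. The OTI-611 mean was 3.61-fold that of DMSO 2 and DMSO 3, but BHLHE41 lies under the minimum of 1 RPKM and was not tested in the comparison over all genes. In RPKM, BHLHE40 was 12.7, 15.8 and 17.8 times BHLHE41 with OTI-611 and 213 and 128 times in DMSO 2 and DMSO 3. These ratios and the fold rest on few BHLHE41 reads, an estimated 43 to 51 with OTI-611 and 8.4 and 13.6 in DMSO 2 and DMSO 3.

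Of the PER genes, which encode repressors of CLOCK and BMAL1, PER1 was the one with a mean above 1 RPKM. PER1 had 1.38, 1.70 and 1.43 RPKM with OTI-611, against 2, 2.27 and 2.16 RPKM with DMSO. The groups did not overlap, but the gap between the highest OTI-611 library and the lowest DMSO library was about as wide as the range within each group. The means were 1.5 ± 0.17 RPKM with OTI-611 and 2.14 ± 0.14 RPKM with DMSO (SD, n = 3 each), and the log2 difference was -0.33 ± 0.10 (SE). PER1 passed an adjusted p of 0.05 in limma, and did not with no minimum level or when OTI-611 1, OTI-611 3, DMSO 2 or DMSO 3 was left out. PER1 lies on chromosome 17 from 8140472 to 8156506.

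PER3, whose protein is not needed for the rhythm itself in mice, had 0.282, 0.450 and 0.295 RPKM with OTI-611, against 0, 0.425 and 0.402 RPKM with DMSO. OTI-611 2 was the highest library of all, so the groups overlapped. PER3 shares 16.7% of its exon bases with genes on the opposite strand, among them UTS2, and the strand of the reads is not given in the sources used here. PER2, a core repressor, was at 0.0081, 0.0649 and 0.0763 RPKM with OTI-611, against 0, 0.109 and 0.0701 RPKM with DMSO. These values fit 2, 16 and 19 reads with OTI-611 and 22 and 15 reads in DMSO 2 and DMSO 3, and OTI-611 1 stood apart from the other OTI-611 libraries. PER3 had an estimated 85 to 136 reads with OTI-611 and 105 in each of DMSO 2 and DMSO 3. PER2 and PER3 lay under the minimum and did not enter the comparison over all genes, and neither passed with no minimum level. The 3 PER genes together summed to 1.67, 2.21 and 1.80 RPKM with OTI-611, against 2.80 and 2.63 RPKM in DMSO 2 and DMSO 3.

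The cryptochromes CRY1 and CRY2, which repress together with the PER proteins, stood at low levels in both groups. CRY1 had 1.53, 1.61 and 1.80 RPKM with OTI-611, against 2, 2.74 and 2.40 RPKM with DMSO. All OTI-611 libraries were below all DMSO libraries, narrowly so for DMSO 1. The means were 1.65 ± 0.14 RPKM with OTI-611 and 2.38 ± 0.37 RPKM with DMSO (SD, n = 3 each), with a log2 difference of -0.35 ± 0.11 (SE) that passed in limma and was -0.43 without DMSO 1. The call for CRY1 was lost with no minimum level and when OTI-611 1, OTI-611 2, DMSO 2 or DMSO 3 was left out. CRY2 had 0.892, 0.878 and 0.831 RPKM with OTI-611, against 0, 0.829 and 0.806 RPKM with DMSO. Its highest and lowest values with decimals were within a narrow band, the log2 difference without DMSO 1 was 0.04 ± 0.082 (SE), and its mean under 1 RPKM kept it out of the comparison over all genes. Whether CRY1 and CRY2 differed in their response was not tested.

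CLOCK (chromosome 4 from 55427903 to 55547138), the DNA-binding activator, stood at similar levels in both groups. It had 7.61, 7.47 and 7.38 RPKM with OTI-611, against 7, 7.34 and 7.18 RPKM with DMSO. The OTI-611 values as listed were all slightly above the DMSO values, by little beside their level. DMSO 1 holds whole numbers, so with decimals cut off it could lie among or above the OTI-611 libraries. The log2 difference was 0.05 ± 0.047 (SE) and did not pass, though it passed as higher after quantile normalization (0.11). There were 3268 to 3339 estimated reads behind each OTI-611 value and 2637 and 2728 behind DMSO 2 and DMSO 3.

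Of the 10 members, 6 had a mean of at least 1 RPKM over the 6 libraries and entered the comparison over all genes. There, 1 was higher (NFIL3), 3 were lower (BHLHE40, CRY1 and PER1) and 2 did not pass (TEF and CLOCK), while 65.2% of all 11978 genes passed, 27.8% higher and 37.3% lower. The groups did not overlap in 5 of the 6, 2 of them higher and 3 lower, against 70.2% of all genes, 30.5% higher and 39.7% lower. For CLOCK, counted as higher here, separation from DMSO 1 is not established, since that column holds whole numbers. The share over all genes has the same limit. Without DMSO 1 the counts stayed at 1 higher and 3 lower of 6, and 68.2% of 12119 genes passed, 26.3% higher and 41.9% lower. With no minimum level and without DMSO 1, an alternative chosen after seeing the data, 1 of all 10 members was higher and 4 were lower, DBP added, while 29.9% of 31787 genes passed, 9.55% higher and 20.4% lower. The members were chosen on this comparison, and nothing is read from these counts. Their median log2 difference was -0.14, beside -0.05 over all genes tested. In the order of levels with OTI-611, NFIL3 came first, followed by CLOCK, BHLHE40, TEF, CRY1, PER1, CRY2, PER3, DBP and PER2. CRY1 and PER1 did not differ beyond their SD there, nor did DBP and PER2. In DMSO 2 and DMSO 3 the order was NFIL3, BHLHE40, CLOCK, CRY1, PER1, TEF, CRY2, PER3, DBP and PER2, and PER1 and TEF did not differ beyond their SD.

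**Figure D3:**
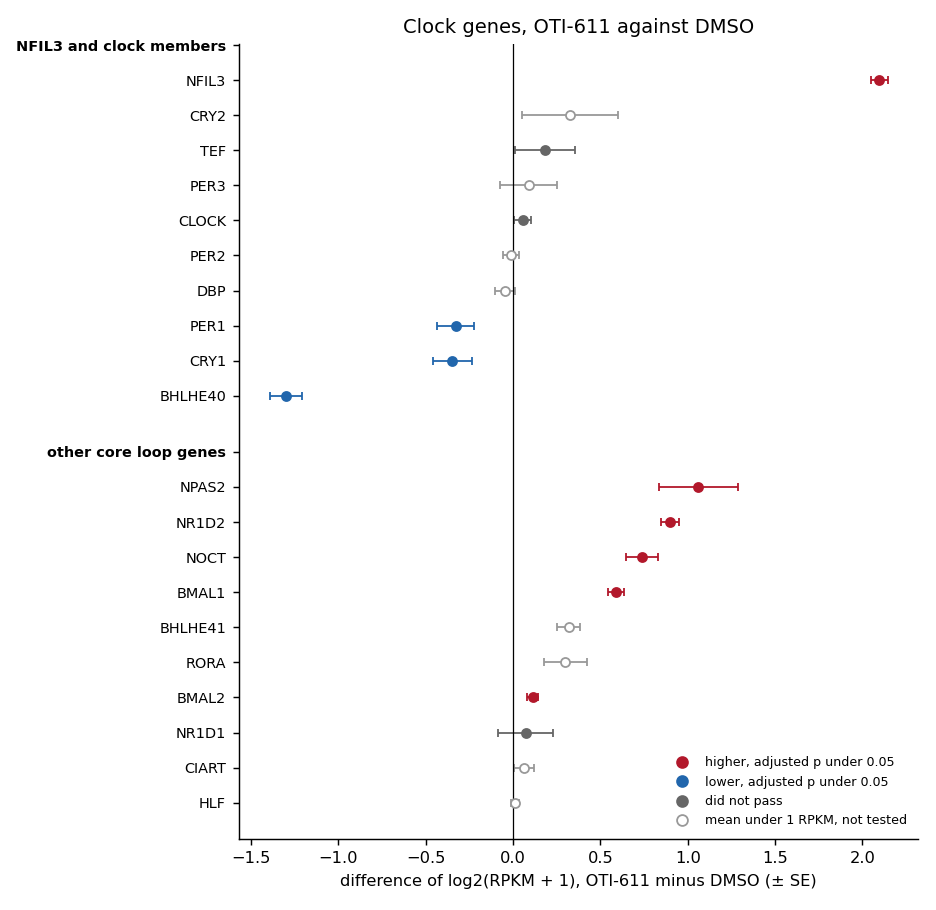
Difference of log2(RPKM + 1), OTI-611 minus DMSO, with SE from limma, for the 10 members and 10 other core loop genes. Filled circles are genes with a mean of at least 1 RPKM, red for higher and blue for lower at an adjusted p under 0.05. Open circles are genes under that mean, with the SE of a fit with no minimum, and include DMSO 1, where such genes are listed at 0. NPAS2, drawn as higher, is over that mean through its OTI-611 libraries alone. NFIL3 lies at 2.10 and BHLHE40 at -1.30.

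The rest of the core loop, genes that are not members, was taken from the same fit. This list, and those of genes acting on PER and CRY and of clock outputs below, were drawn up with earlier results of these data known. Their counts, medians and adjusted p-values are therefore a description and not independent evidence. Of 12 listed genes 11 were in the table and 6 had a mean of at least 1 RPKM over the 6 libraries. NPAS2 was over that mean through its OTI-611 libraries alone, so it is described without a test. Of the other 5, BMAL1, BMAL2, NR1D2 and NOCT rose with OTI-611 and NR1D1 did not pass, beside 27.8% of all genes higher and 37.3% lower. The median log2 difference of these 5 was 0.59, beside -0.05 over all genes. The 4 that rose had OTI-611 libraries above all 3 DMSO libraries, and they also passed without DMSO 1. BMAL1, the partner of CLOCK, had 30.7, 31.4 and 31.1 RPKM with OTI-611, against 21, 18.7 and 21.3 RPKM with DMSO, a log2 difference of 0.59 ± 0.047 (SE, limma adjusted p = 4.99e-06). BMAL2 rose by less, with 23.5 ± 0.3 RPKM with OTI-611 and 21.7 ± 0.4 RPKM with DMSO (SD, n = 3 each, log2 difference 0.11, limma adjusted p = 0.011).

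NPAS2, which can take the place of CLOCK, had 2.02, 2.27 and 1.98 RPKM with OTI-611, against 0, 0.755 and 0.849 RPKM with DMSO. Its OTI-611 mean was 2.61-fold that of DMSO 2 and DMSO 3, and the groups did not overlap. Its log2 difference was 1.06, and 0.78 without DMSO 1. As levels per length, NPAS2 stood at 0.266, 0.304 and 0.268 of CLOCK with OTI-611, against 0.103 and 0.118 in DMSO 2 and DMSO 3. BMAL1 stood at 4.03, 4.21 and 4.21 times CLOCK with OTI-611, against 3, 2.55 and 2.97 times with DMSO.

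Of the nuclear receptors of the loop, NR1D2 rose and NR1D1 did not pass, and the difference between them was not tested. NR1D2, which encodes REV-ERB beta, had 26.6, 27.8 and 24.9 RPKM with OTI-611, against 14, 14.3 and 12.9 RPKM with DMSO, about 1.95-fold the mean of DMSO 2 and DMSO 3. The log2 difference of NR1D2 was 0.90 ± 0.051 (SE, limma adjusted p = 6.41e-07). NR1D1, which encodes REV-ERB alpha, had 1.75, 1.58 and 1.75 RPKM with OTI-611, against 1, 2.02 and 1.78 RPKM with DMSO, and did not pass (log2 difference 0.07, limma adjusted p = 0.71). Without DMSO 1 its difference was -0.11, which did not pass either (limma adjusted p = 0.28), with all OTI-611 libraries below DMSO 2 and DMSO 3. RORA was under the minimum, at 0.448, 0.477 and 0.342 RPKM with OTI-611, against 0, 0.283 and 0.199 RPKM with DMSO. NOCT, a rhythmic gene that encodes nocturnin, rose to 18.0 ± 1.0 RPKM with OTI-611, against 10.4 ± 1.6 RPKM with DMSO (SD, n = 3 each, log2 difference 0.74, limma adjusted p = 7.22e-05). CIART, like HLF, stayed under 0.15 RPKM in every library.

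**Figure D4:**
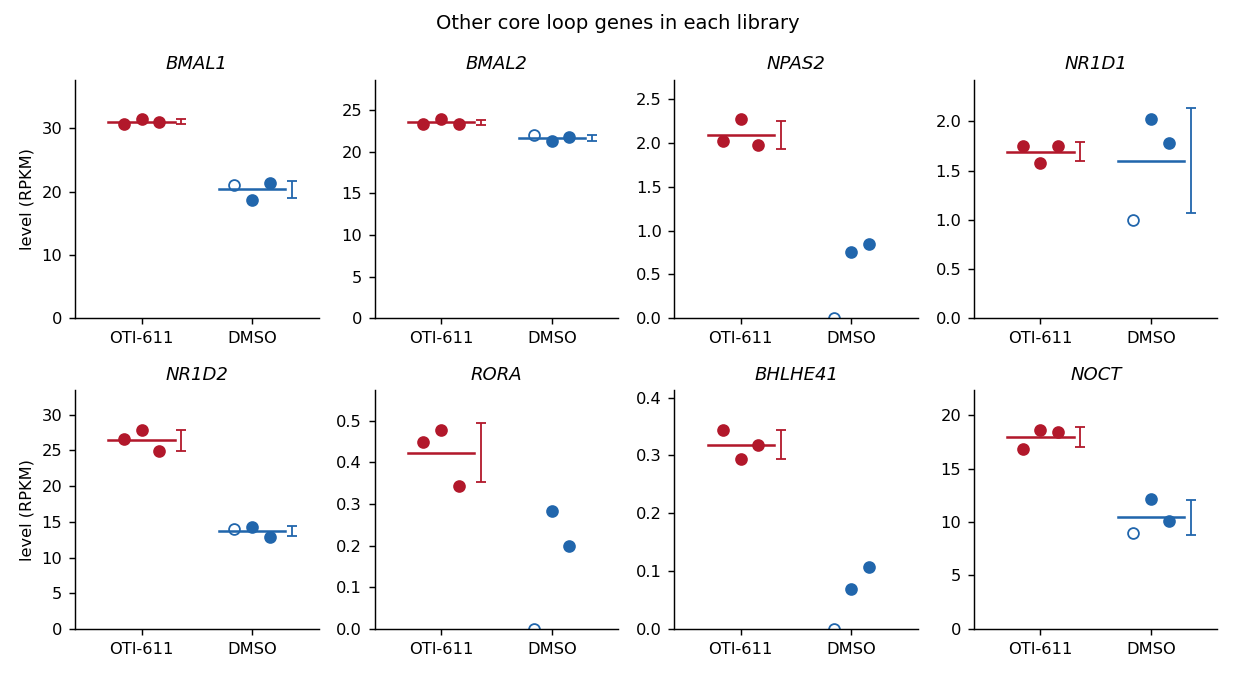
Level in RPKM of 8 core loop genes that are not members, in the 3 OTI-611 libraries (red) and the 3 DMSO libraries (blue, DMSO 1 open), with group means and SD where no library is listed at 0. NR1D2 stands at 24.9 to 27.8 RPKM with OTI-611 against 12.9 to 14.3 with DMSO, and BMAL1 at 30.7 to 31.4 against 18.7 to 21.3.

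Genes for proteins that act on PER and CRY, a list also drawn up with earlier results known, went both ways. Of 18 listed, 16 were tested, of which 10 rose, 4 fell and CSNK1D and USP2 did not pass, beside 27.8% of all genes higher and 37.3% lower. Their median log2 difference was 0.23, beside -0.05 over all genes. USP2 passed as higher after quantile normalization (limma adjusted p = 0.014). SIRT1, a deacetylase that acts on PER2 and BMAL1, had 38.5 ± 0.6 RPKM with OTI-611 and 18.6 ± 0.5 RPKM with DMSO (SD, n = 3 each, log2 difference 1.01, limma adjusted p = 2.72e-08). CSNK1A1, which encodes casein kinase 1 alpha, had 63.4 ± 2.9 RPKM with OTI-611 and 37.3 ± 1.1 RPKM with DMSO (log2 difference 0.75, limma adjusted p = 3.51e-07). CSNK2A1, a catalytic subunit of casein kinase 2, rose by 0.33 on the log2 scale (limma adjusted p = 1.14e-05). Of the main PER kinases, CSNK1E rose by 0.26 and CSNK1D stood at -0.05, which did not pass. The F-box gene BTRC (-0.25), USP7 (-0.19), PPP1CA (-0.15) and GSK3B (-0.15) fell, and the call for GSK3B was lost without OTI-611 1 (limma adjusted p = 0.055), after quantile normalization or median rescaling, and with decimals dropped in all libraries. The call for PPP1CA was lost after median rescaling, and with no minimum level and without DMSO 1. CSNK2B is listed at or near 0 in every library and FBXL21P was under the minimum, so neither was tested. Whether the values of CSNK2B come from the cells or from the annotation behind the columns was not tested.

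Genes described in other tissues as outputs of the clock, again a list drawn up with earlier results known, mostly rose. Of 12 listed, 10 were tested, of which 8 rose, HES1 fell and the call for PPARA was not reached, beside 27.8% of all genes higher and 37.3% lower. Their median log2 difference was 0.38, beside -0.05 over all genes. PPARA stood at 0.28 (limma adjusted p = 0.073), and passed as higher after quantile normalization, after median rescaling and with no mean-variance trend, which gave 9 higher. VEGFA, the angiogenic growth factor, had 37.4 ± 0.9 RPKM with OTI-611 and 18.1 ± 1.6 RPKM with DMSO (SD, n = 3 each, log2 difference 1.01, limma adjusted p = 4.94e-07). NAMPT, the rate-limiting enzyme of NAD salvage, had 284 ± 8 RPKM with OTI-611 and 204 ± 4 RPKM with DMSO (log2 difference 0.48, limma adjusted p = 7.05e-07). ALAS1, the first enzyme of heme synthesis, rose by 0.57 on the log2 scale (limma adjusted p = 1.75e-06), and TSC22D3, a glucocorticoid-induced gene also called GILZ, by 0.89 (limma adjusted p = 3.85e-06). WEE1, the mitotic inhibitor kinase, rose by 0.12 (limma adjusted p = 0.024), a call lost without OTI-611 2, OTI-611 3 or DMSO 1. HES1 fell by 0.53 on the log2 scale, at 1.11 ± 0.16 RPKM with OTI-611 and 2.05 ± 0.22 RPKM with DMSO (SD, n = 3 each, limma adjusted p = 0.0031). These genes answer to many signals besides the clock, and the part of any clock factor in them was not tested.

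**Figure D5:**
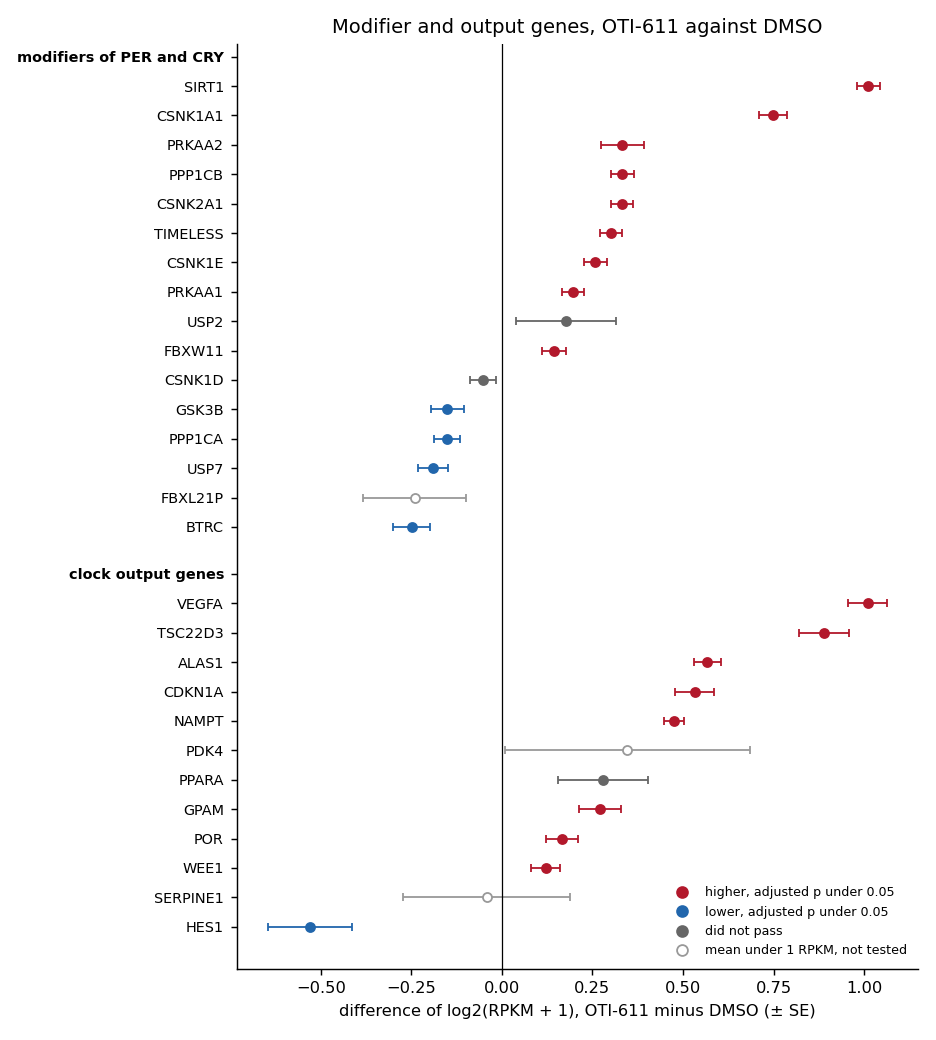
Difference of log2(RPKM + 1), OTI-611 minus DMSO, with SE from limma, for 16 genes acting on PER and CRY proteins and 12 clock output genes, coloured by call, with open circles for genes under a mean of 1 RPKM. SIRT1 and VEGFA lie highest, both at 1.01, and HES1 lowest at -0.53.

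The genes most like NFIL3 over the 6 libraries were sought by the root-mean-square difference of log2(RPKM + 1), centred on each gene's own mean. Of 7771 genes with a mean of at least 5 RPKM, 6760 were compared. Passed over by name were genes without a symbol and clone, LINC, MIR and small RNA names. Names holding orf, antisense names and names ending in P and a number were passed over too. The last form takes in some protein-coding genes, so a closer gene may be among those passed over. PPP1R15A, a phosphatase subunit of the stress response, was closest at 0.099 log2 units, with 130, 150 and 158 RPKM with OTI-611 against 29, 32.3 and 32.0 RPKM with DMSO. CTH, an enzyme of cysteine synthesis, followed at 0.11 log2 units, then SLFN5 at 0.13, the transcription factor KLF4 at 0.14 and the hexokinase HK2 at 0.17. Their OTI-611 means were 3.59-fold to 4.69-fold those of DMSO 2 and DMSO 3. With only 2 conditions this likeness is mostly a likeness in the size of the rise.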

How the data were processed

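Per the labels' protocols, DU145 RNA came from a miRNeasy kit, was amplified as cDNA (Geo-seq) and made into libraries with a TruePrep kit. Per the submitters' processing notes, which give no roles, TopHat2 2.0.9, HTSeq, Cufflinks 2.1.1, FastQC, CASAVA 1.7 and the mouse build mm10 were used, but all 32692 gene IDs are human, so build, annotation and filters are not established. The authors deposited 5 columns without a named unit, taken as RPKM: of their low values, 69.7% to 71.0% were whole reads within 0.05 given GENCODE v29 exon lengths, where 10% would be by chance. FPKM would look the same, and reads would then be fragments. The column DMSO 1, which the authors deposited as whole numbers, is treated as a score on the same scale. 0 columns were left unused.

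Values were fitted as log2(value + 1) with limma 3.58.1 in R 4.3.3 (two-sided, with a mean-variance trend and group as the only term, adjusted by Benjamini-Hochberg over all 11978 genes with a mean of at least 1, threshold 0.05). The scale understates changes of low genes. The code was tested on simulated data. Whether libraries are separate cultures is not given, so the p-values cover library-to-library spread alone, which may be technical. Reads of DBP and PER2 are those at which all 5 libraries gave whole numbers within 0.1 at 1 common length. The members and lists were chosen with earlier results of these data known. Named are the members, the core loop genes over the minimum, the 4 smallest p of the other lists and the 5 genes most like NFIL3, and other list genes were named after their values were seen. RORB was not analysed here, and some list genes that the counts include are not reported here. Amplified reads are not molecules.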

Additional observations from a re-analysis of the deposited data

How the results depend on the processing

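NFIL3 stayed between 2.05 and 2.15 on the log2 scale and BHLHE40 between -1.45 and -1.24 over all alternatives, and both passed in each. Of the members, 2 passed as higher after quantile normalization (CLOCK added), and 1 as lower with no minimum, where PER1 and CRY1 did not pass. With a minimum mean of 5, which removes PER1 and CRY1 and leaves 3 members, 1 passed as lower. Leaving out 1 library gave 1 to 3 lower members. Numbers are shared by both groups, and whether they pair the libraries is not established. The r of deviations was 0.019, 4.11e-04 and -0.058 for libraries of the same number. With 3 libraries per group and DMSO 1 in whole numbers, these values cannot decide it. With the replicate number as a block 3327 genes were higher and 4429 lower, against 3332 and 4473. The members' counts stayed at 1 and 3. TEF turned to -0.029 without DMSO 1, with or without a minimum, and lay between that and 0.303 when 1 library was left out. NR1D1 turned to -0.19 with decimals dropped in all libraries and to -0.11 without DMSO 1, with or without a minimum (0.19 at most with 1 library left out). CSNK1D turned to 0.0026 when libraries were rescaled by median log ratio, where 2 modifier genes were lower. In limma, 0 output genes were lower with a minimum mean of 5, which removes HES1 (0 also at an unadjusted p under 0.05), and 0 with decimals dropped (also 0 at an unadjusted p under 0.05), against 2 with no minimum and without DMSO 1, an alternative chosen after seeing the data. The causes were not tested. Values under 1 RPKM in DMSO 1 limit what can be said of DBP, PER2, PER3 and CRY2.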
